A study of Rattus norvegicus with 6 samples.

Results

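The 128 genes described here encode cytokines and chemokines, their receptors, the NF-kB subunits and inhibitors, the JAK kinases, the STAT factors, the SOCS proteins, the interferon regulatory factors and the ICAM and VCAM adhesion molecules. They were taken by symbol from the 10411 genes that the array measures under a single symbol, and a gene with several probe sets is represented by the one whose log2 signal, averaged over all 6 arrays, was highest. The symbols had been matched to 163 probe sets, of which 3 carried several symbols (Il13ra1 with a pseudogene, and Ifna2 with Ifna5) and were left out. The remaining 160 probe sets measured these 128 genes, 24 of them with more than 1 probe set. The choice by name also brings in a few relatives that are no cytokine signalling components, such as Tnfaip1 and the Irf2bp genes, whose products bind Irf2.

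AR42J, a rat cell line from an exocrine tumour of the pancreas, was cultured without dexamethasone (control, n = 3) or with 100 nM dexamethasone for 48 h (n = 3). All cultures were at passage 29, plated for 24 h in 20% serum and then kept in 5% serum, in 3 experiments spread over 5 months. An array (Affymetrix Rat 230A) was run on total RNA from each culture, and the values are MAS5 signals, linear intensities given per probe set. A single line, dose and time were sampled.

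Inflammatory cytokines such as TNF and interleukin-1 bind receptors that release NF-kB dimers from their IkB inhibitors, and the dimers then enter the nucleus and switch on genes for chemokines, adhesion molecules and further cytokines. Interleukin-6 type cytokines and interferons act through receptors whose JAK kinases phosphorylate STAT factors, and SOCS proteins, which STATs induce, shut that signal down. Glucocorticoids are used as anti-inflammatory drugs: the ligand-bound receptor restrains NF-kB and raises inhibitors of inflammation, among them Nfkbia. In the pancreas, acinar cells make cytokines and chemokines when injured, and this contributes to pancreatitis.

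Sequence was examined because NF-kB binds several of its own regulators. RefSeq promoter windows of the rat assembly GRCr8 were matched for 99 of the 128 members, and the 250 bases before the start of each gene were searched on both strands. The kappaB motif, searched as GGGA, any base and TTTCC, was found before 8 of the 99 members (8.08%) and before 0.317% of all 27457 genes with a window, each gene counted by its first window. The 8 matches are shown with 10 bases on each side, because they mark where these letters stand relative to the gene start. Capitals mark the match, letters run 5′ to 3′ along the gene, and a match on the opposite strand reads as the reverse complement.
Nfkbia: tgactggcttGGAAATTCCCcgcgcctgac
Nfkb2: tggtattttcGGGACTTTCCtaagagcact
Ifngr2: ggaacgcccgGGAAAGTCCCgtgggtcgaa
Irf3: ccattagaaaGGAAAGTCCCaacgctcgga
Il6: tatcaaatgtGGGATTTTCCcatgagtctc
Cxcl1: cctgtgctccGGGAATTTCCctggcctgga
Cxcl6: tccaaggcccGGGAATTTCCccagcatctt
Ccr3: ttccttaagaGGAAATTCCCacattgttct

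These stretches lie at chr6:78597084-78597113 (Nfkbia, minus strand), chr1:255108344-255108373 (Nfkb2, plus), chr11:44265621-44265650 (Ifngr2, plus), chr1:104616569-104616598 (Irf3, plus), chr4:5894624-5894653 (Il6, minus), chr14:17479386-17479415 (Cxcl1, minus), chr14:17596486-17596515 (Cxcl6, minus) and chr8:132500061-132500090 (Ccr3, plus). Seen from the gene start, the matches began between position -178 (Ccr3) and -20 (Nfkb2). The members with the motif did not share a response: Nfkbia and Irf3 rose, Ifngr2 fell, and Nfkb2, Il6, Cxcl1, Cxcl6 and Ccr3 were too dim for the test. A STAT motif, TTCNNNGAA, stood before 10 of the 99 members (10.1%, against 7.52% of all genes). An interferon response motif, GAAA, any 2 bases and GAAA, stood before 7 (7.07% against 3.29%). The hexamer TGTTCT, part of the glucocorticoid response element, stood before 11 (11.1% against 17.1%). The windows had a median of 54.4% G and C for members and 52.0% for all genes. These are letter matches, not sites shown to be bound.

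The 250 bases before Nfkbia (chr6:78597073-78597322, minus strand) and Socs1 (chr10:5389324-5389573, plus strand) are printed whole. Both hold such motifs, and the probe set that represents each gene was higher with dexamethasone. Nfkbia passed the test, whereas Socs1 was too dim for it and its other probe set stayed at background. Windows were matched for 6 members called higher and 3 called lower. The kappaB motif stood before 2 of those 6 and 1 of those 3. The STAT and interferon response motifs stood before 0 of the 6 and 0 of the 3. A link between motif and response was not tested. Capitals mark the kappaB match in Nfkbia, and in Socs1 the STAT match followed by a pair of overlapping interferon response matches. Neither window held the letters TGTTCT or their reverse complement.
Nfkbia: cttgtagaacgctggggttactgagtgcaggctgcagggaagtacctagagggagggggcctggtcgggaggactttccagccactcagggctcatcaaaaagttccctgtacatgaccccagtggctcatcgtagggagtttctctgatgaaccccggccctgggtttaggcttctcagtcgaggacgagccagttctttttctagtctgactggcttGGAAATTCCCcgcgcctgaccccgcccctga
Socs1: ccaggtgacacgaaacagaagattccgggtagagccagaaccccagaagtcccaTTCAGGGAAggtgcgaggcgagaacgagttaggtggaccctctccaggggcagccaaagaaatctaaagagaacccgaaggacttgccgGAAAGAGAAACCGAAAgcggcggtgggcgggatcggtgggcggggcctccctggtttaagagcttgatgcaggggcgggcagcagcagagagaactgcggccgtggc

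Most of the cytokine genes gave little or no signal in either group. The brightest of 27 probe sets for Bacillus subtilis controls gave each array a background level, which ran from 51.7 to 97.3 in controls and from 83.7 to 115.9 in treated arrays, so a signal of the same size more easily counts as at background in treated arrays. On these levels, 27 of the 128 members (21.1%) were at background on all 6 arrays and 47 (36.7%) were above it on all 6, against 11.7% and 69.3% of all genes. The 27 were the chemokines Ccl2, Ccl6, Ccl28, Cxcl1 and Cxcl6, and the ligands Tnf, Tnfsf11, Ifnb1, Ifng, Il1rn, Il2, Il5, Il6, Il10, Il11, Il12a and Il17f. They also included the receptors Ccr1, Il4r, Il7r, Tnfrsf1b and Tnfrsf11b, the adhesion molecules Icam1, Icam2 and Vcam1, and Tnfaip6 and Irf2. With the 40th percentile of each array as the level instead, 67 members were at background on all arrays and 29 above it on all. By role, all 6 NF-kB members, 6 of 7 JAK and STAT genes and 7 of 9 interferon regulatory factor genes were above background on all arrays. So were 4 of 6 SOCS genes and 1 of 4 TNF-induced proteins. The same held for 4 of 21 chemokines and for 3 of 30 genes grouped as interleukins, interferons and TNF ligands. The difference between roles was not tested. Signal also depends on each probe set's own sequence.

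**Figure D1:**
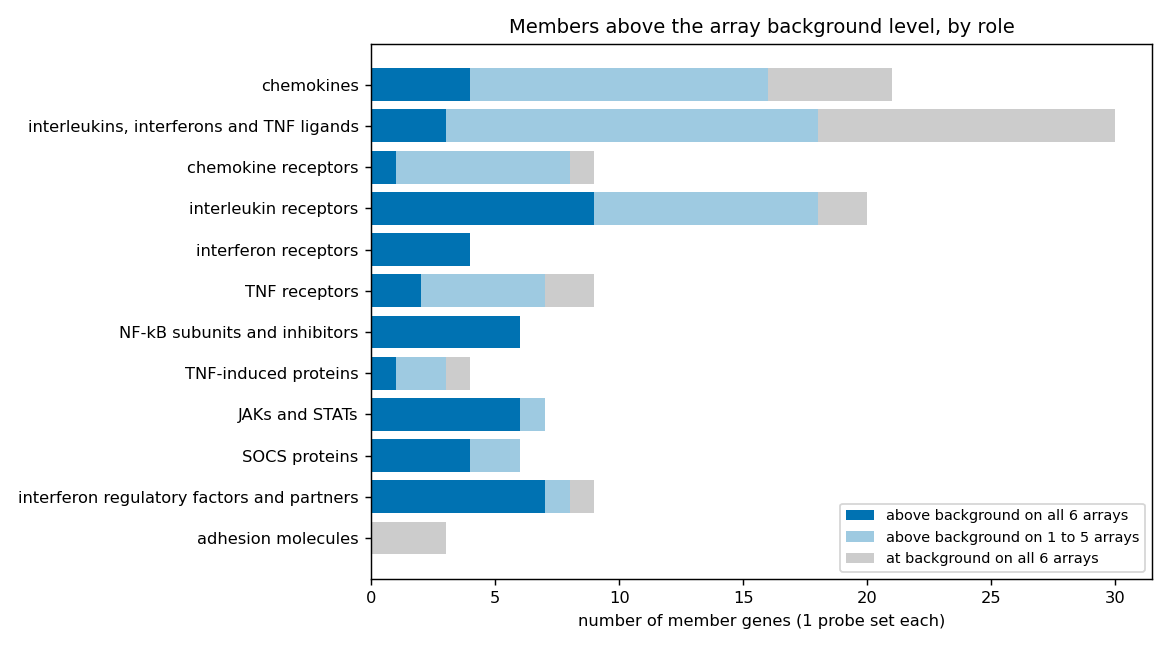
Number of member genes in each role (bars start at 0), split by whether the gene's probe set was above the array's background level on all 6 arrays, on 1 to 5 arrays or on none. All 4 interferon receptor genes and all 6 NF-kB genes lie above background on all arrays, whereas all 3 adhesion molecule genes are at background on all arrays.

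A member entered the test if its mean log2 signal reached the 40th percentile of all probe sets, a signal of 147.6, and 43 of the 128 did. The 9520 probe sets that passed were fitted together in limma (treatment, with the replicate number as block), with Benjamini-Hochberg adjustment over them and a threshold of 0.05. Log2 changes below are dexamethasone minus control ± SE from this fit, and signals are mean ± SD with n = 3 per group. Of the 43 members tested, 10 were higher, 3 were lower and 30 did not pass. Over all 7051 genes tested, 38.4% passed, 17.0% higher and 21.4% lower, so the members' share of 30.2% was not above that of the array. The median log2 change was 0.15 over the members and -0.04 over all genes tested, and the median size of change was 0.36 and 0.35. The signals of the groups did not overlap for 17 of the 43 members (39.5%) and for 51.0% of all genes tested, again no excess among the members. Without replicate number as a block, 8 members were higher and 4 lower.

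Scaling of the arrays moved the split between higher and lower members. The 10 higher and 3 lower members (76.9% higher) became 4 higher and 7 lower (36.4% higher) when arrays were centred on their hybridization controls, which moved the median log2 change of all genes tested from -0.04 to -0.29. With centring on the 75th percentile, which moved it to 0.08, 11 were higher and 2 lower. The calls of 6 members, Nfkbia, Il11ra1, Il17re and Stat2 (higher) and Ifngr1 and Cxcl16 (lower), kept their direction and passed in each of the 12 alternative settings tried. Those settings were 3 scalings, 2 filters, a pseudocount, no block, no intensity trend, averaged probe sets and leaving out each of 3 replicates. The calls of Tnfrsf1a and Nfkbib were lost only with hybridization control scaling.

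**Figure D2:**
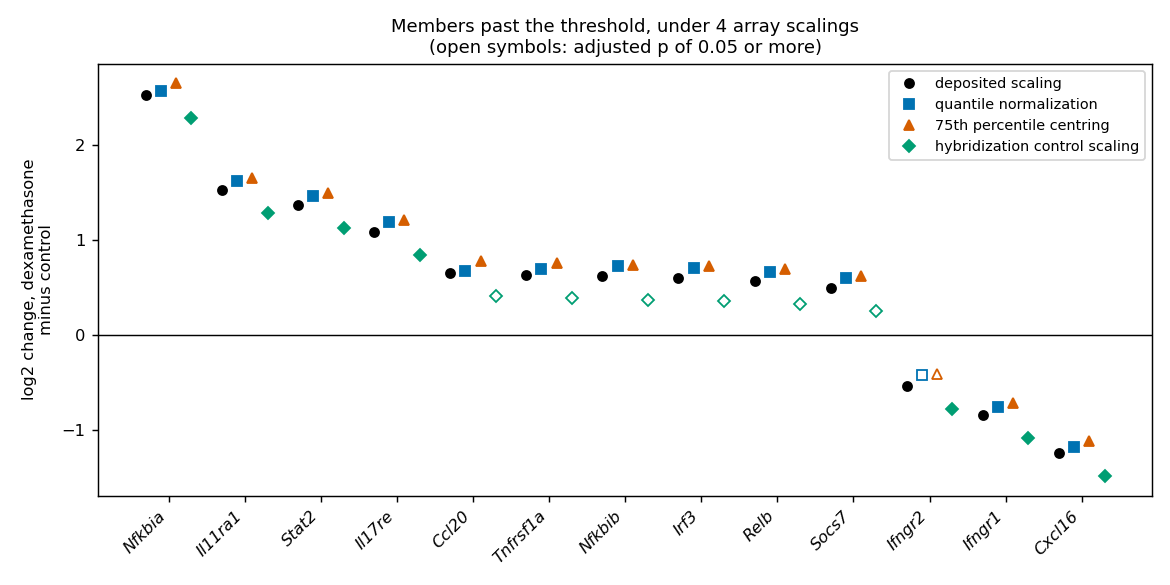
Log2 change, dexamethasone minus control (vertical axis), of the 13 members past the threshold, under the deposited scaling and 3 other scalings of the arrays (symbols; filled where the adjusted p is under 0.05). Nfkbia, Il11ra1, Stat2 and Il17re stay above 0 and Ifngr1 and Cxcl16 below 0 with filled symbols throughout, and 6 smaller rises have open symbols with hybridization control scaling.

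Among 21 chemokines, the secreted attractants of leukocytes, 4 were bright enough to test. Cxcl16, a membrane-anchored chemokine that can be shed, had signals of 487.1, 356.7 and 334.2 in controls 1 to 3 and 143.1, 254.4 and 120.3 with dexamethasone. All 3 treated arrays were below all 3 controls, and Cxcl16 fell by 1.24 ± 0.25 on the log2 scale, or 2.37-fold (adjusted p = 0.00528, limma). Ccl20, which draws in cells bearing the receptor Ccr6, rose from 128.2 ± 12.2 to 201.3 ± 9.80 (0.65 ± 0.22, adjusted p = 0.0410), but this call was lost without any 1 of the 3 replicates (adjusted p = 0.160, 0.0689 and 0.159 without replicates 1, 2 and 3). Ccl4 (0.36 ± 0.24) and Ccl22 (-0.16 ± 0.25) did not pass.

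The other chemokines were dim. Cxcl10, induced by interferon, had signals of 189.1, 179.0 and 151.3 in controls and 154.1, 97.8 and 108.3 in treated cultures, which overlapped and were not tested. Cxcl2, a neutrophil attractant, lay between 36.4 and 82.0 and was above background on 2 control arrays only. Ccl2, the main monocyte attractant, lay between 4.5 and 17.8.

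Of 30 interleukins, interferons and TNF family ligands, 1 was tested, and none was called in that fit. The probe set shared by Ifna2 and Ifna5, left out for carrying several symbols, was above background on all 6 arrays. It read 269.6, 346.3 and 225.5 in controls and 292, 325.5 and 394.7 with dexamethasone, and the groups overlapped. Il33, an alarmin stored in the nucleus, went from 140.0 ± 22.7 to 188.0 ± 25.5 (0.43 ± 0.22, adjusted p = 0.154, limma), with no overlap between groups. Il1b, the secreted form of interleukin-1 that inflammasomes process, had signals of 92.7, 116.3 and 105.8 in controls and 57.2, 146.4 and 125.0 with dexamethasone, and Il18, of the same family, ranged from 56.4 to 114.0. The signals of Tnf lay between 22.9 and 65.9 and those of Il6 between 8.5 and 60.5. The groups overlapped for each of these 4 genes.

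Of 20 interleukin receptor genes, 9 were tested, of which 2 rose and 7 did not pass, and a further receptor, Il6r, appeared from background. Il6r encodes the receptor chain that binds interleukin-6, and its signals were 11.9, 1.8 and 24.4 in controls and 574.9, 610.6 and 481.0 with dexamethasone. It was at background on all 3 control arrays and above it on all 3 treated ones, at least 8.51-fold higher (the treated mean against the background level). With its mean kept below the filter by the controls, it was outside the test, and in the fit with no filter limma gave an adjusted p of 0.00146. Il11ra1, the corresponding chain for interleukin-11, had signals of 345.4, 291.6 and 277.6 in controls and 997.4, 759.3 and 896.6 in treated cultures. The groups did not overlap, and Il11ra1 rose by 1.53 ± 0.15, or 2.90-fold (adjusted p = 8.3e-05).

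Il6st (gp130), the signalling chain that both receptors share, went from 763.5 ± 43.8 to 841.8 ± 111 and did not pass (0.13 ± 0.14, adjusted p = 0.481, limma). Its other probe sets did not pass either (0.40 ± 0.16 and -0.15 ± 0.16). The cytokines themselves, Il6 and Il11, were at background on all arrays.

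Il17re, a receptor chain through which interleukin-17C acts on epithelial cells, had signals of 532.1, 384.4 and 537.3 in controls and 961.5, 1018.0 and 1078.8 with dexamethasone. It rose by 1.09 ± 0.15, or 2.13-fold (adjusted p = 0.000767, limma), with no overlap. The second probe set of Il17re was at background in all controls and read 293.1, 266.9 and 321.7 in treated cultures, at least 4.51-fold higher. Averaging both probe sets gave a log2 change of 1.86. Il17ra, the chain with which Il17re pairs, changed by -0.37 ± 0.20 and did not pass (adjusted p = 0.171). Scaled on hybridization controls, it passed as lower (-0.62, adjusted p = 0.0324).

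Il1r2, a decoy receptor that captures interleukin-1 without signalling, was at background in all controls (9.8, 36.6 and 32.0) and above it in all treated cultures (180.0, 92.5 and 230.4), at least 2.41-fold higher. It was too dim for the main test, and limma gave an adjusted p of 0.0129 with no filter. The signalling receptor Il1r1 read between 67.2 and 83.4 in controls and between 95.9 and 111.9 in treated cultures, and its partner Il1rap between 100.1 and 121.3 and between 72.9 and 96.0. Both pairs of ranges were apart, but neither gene passed with no filter (adjusted p = 0.314 and 0.438). Il3ra (-0.54 ± 0.21, adjusted p = 0.0769) passed as lower without the replicate block (adjusted p = 0.0436). Il1rl2 did not pass (0.72 ± 0.30, adjusted p = 0.0965) but was higher without replicate 3 (0.85, adjusted p = 0.0249). Il2rb, Il2rg and Il9r did not pass.

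Of the 85 members below the filter, 9 passed in the fit with no filter. Among all 3360 genes below the filter 276 passed (8.21%), a similar share. Besides Il6r and Il1r2, these were Socs1, Il13, Il23a, Il7r and Tnfrsf14, which were higher, and Jak2 and Tnfaip8, which were lower. They are named because of that result. Il6r, Il1r2 and Socs1 were at background on all control arrays and above it on all treated ones, a pattern found in 0.804% of all genes below the filter. Il7r was at background on all arrays, Il23a on 5 of 6, and a change between signals near background is not measured well. The groups of Tnfrsf14 overlapped (25.3 to 65.8 in controls and 51.9 to 147.2 with dexamethasone).

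Both chains of the receptor for interferon gamma fell. Ifngr1, the ligand-binding chain, had signals of 1236.8, 808.4 and 986.6 in controls and 546.4, 598.8 and 519.7 with dexamethasone, a fall by 0.85 ± 0.17 or 1.80-fold (adjusted p = 0.00464, limma). Ifngr2, the chain that carries Jak2, had signals of 596.6, 587.2 and 489.6 in controls and 382.6, 418.0 and 349.0 in treated cultures. All treated arrays were below all controls for both chains. The fall of Ifngr2 (0.54 ± 0.15 on the log2 scale, adjusted p = 0.0195) was smaller, and its call was lost with quantile normalization (adjusted p = 0.0512), with 75th percentile centring (adjusted p = 0.0517) and without replicate 1 (adjusted p = 0.0886) or replicate 2 (adjusted p = 0.0593). With its probe sets averaged, Ifngr2 was below the filter. The chains of the receptor for type I interferons did not pass. Ifnar1 had a change of 0.45 ± 0.20 (adjusted p = 0.117, limma) and Ifnar2 of 0.12 ± 0.21 (adjusted p = 0.693). Another tested probe set of Ifnar1 came close to the threshold (0.61 ± 0.22, adjusted p = 0.0580), with all treated arrays above all controls. The remaining Ifnar1 probe sets were too dim for the test. Whether the receptors for interferon gamma and for type I interferons differed in response was not tested.

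Tnfrsf1a, the main TNF receptor, had signals of 920.8, 810.7 and 674.0 in controls and 1565.4, 1262.3 and 952.2 with dexamethasone. The lowest treated value was close to the highest control, and treated cultures were higher within each of the 3 pairs (0.63 ± 0.13, or 1.55-fold, adjusted p = 0.00546, limma). This call was lost with hybridization control scaling (0.39, adjusted p = 0.0608). Tnfrsf21, a death domain receptor, did not pass (-0.23 ± 0.18), and Tnfrsf1b, the other TNF receptor, was at background on all arrays. Among chemokine receptors, Cxcr4, which binds Cxcl12, read 53.1, 58.1 and 70.1 in controls and 87.4, 103.7 and 124.5 in treated cultures. Its groups did not overlap but it was too dim for the test, and it did not pass with no filter (adjusted p = 0.118), whereas its other 2 probe sets did (adjusted p = 0.0239 and 0.0493). Those were at background on all control arrays and above it on only 1 and 2 treated arrays, so their changes lie near background too.

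**Figure D3:**
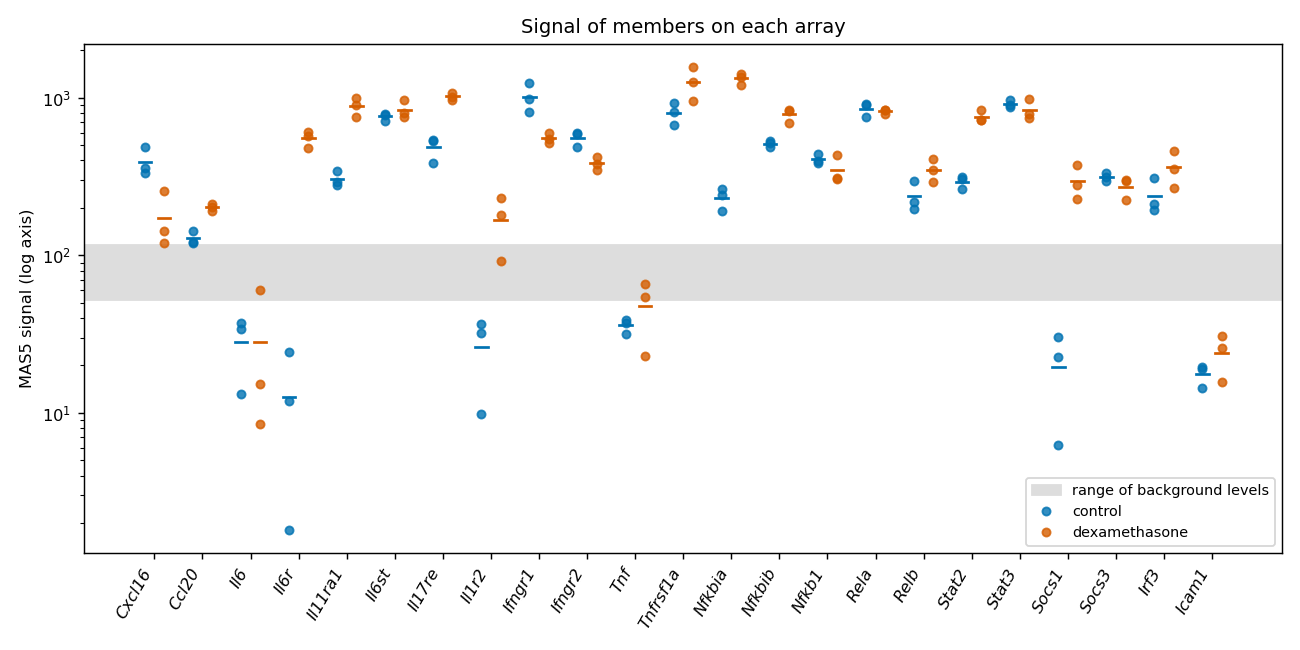
MAS5 signal on each array (vertical log axis) of 23 members in controls (blue) and with dexamethasone (orange), with the group means as horizontal bars and the range of array background levels, 51.7 to 115.9, in grey. Il6r, Il1r2 and Socs1 lie below the grey band in controls and, apart from 1 array of Il1r2, above it with dexamethasone, whereas Rela, Stat3 and Il6st overlap between groups.

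The inhibitors of NF-kB rose, and its main subunits did not pass the test. Nfkbia encodes IkB-alpha, which holds NF-kB dimers in the cytoplasm, and its signals were 190.4, 264.9 and 241.2 in controls and 1423.7, 1211.5 and 1361.3 with dexamethasone. The lowest treated value was well above the highest control, and Nfkbia rose by 2.53 ± 0.17, or 5.78-fold (adjusted p = 1.0e-05, limma), the largest rise among the members tested. Nfkbib, which encodes IkB-beta, had signals of 532.4, 484.1 and 514.8 in controls and 826.0, 694.3 and 833.3 in treated cultures. It rose by 0.62 ± 0.14, or 1.53-fold (adjusted p = 0.00818), with no overlap, a call lost with hybridization control scaling (0.37, adjusted p = 0.0688).

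Rela, the activating p65 subunit, read 854.2 ± 91.1 and 825.3 ± 28.4 (-0.04 ± 0.14, adjusted p = 0.832, limma), and Nfkb1, the p50 precursor, 406.6 ± 28.4 and 348.9 ± 72.4 (-0.24 ± 0.18, adjusted p = 0.342). Relb, the subunit of the non-canonical pathway, read 294.6, 196.1 and 219.5 in controls and 406.2, 292.7 and 348.0 with dexamethasone. The groups overlapped by a small margin, treated cultures were higher within each pair, and Relb passed (0.57 ± 0.17, adjusted p = 0.0278). The call was lost without the block (adjusted p = 0.0501), with no filter, with hybridization control scaling and without any 1 replicate (adjusted p = 0.0813, 0.0751 and 0.120 without replicates 1, 2 and 3). Nfkb2, its partner, read between 71.6 and 123.6 in controls and between 100.2 and 153.2 in treated cultures and was too dim for the test.

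Of the TNF-induced proteins, Tnfaip1 (-0.08 ± 0.13) and Tnfaip2 (0.15 ± 0.28) did not pass. Tnfaip8, a regulator of cell survival, read 109.4, 135.6 and 128.1 in controls and 14.2, 4.7 and 7.2 with dexamethasone, where it was at background on all 3 arrays. The fall was at least 1.25-fold, a bound that the higher background level of treated arrays keeps low.

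Among 7 JAK and STAT genes, Stat2 rose. Stat2, a factor activated by type I interferons, had signals of 263.6, 312.6 and 305.1 in controls and 721.2, 721.5 and 834.1 with dexamethasone. The groups did not overlap, and Stat2 rose by 1.37 ± 0.15, or 2.58-fold (adjusted p = 0.000167, limma). Its second probe set was at background in all controls and read 48.2, 358.8 and 146.0 in treated cultures, above background on 2 of them.

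Stat3, the factor activated through gp130, read 915.4 ± 48.2 and 837.4 ± 122 and did not pass (-0.14 ± 0.13, adjusted p = 0.458, limma), nor did its second probe set (-0.15 ± 0.21). Stat5a went from 510.1 ± 108 to 676.6 ± 220 (0.38 ± 0.20, adjusted p = 0.172), with dexamethasone 1 (931.1) well above the other treated arrays. It was past the threshold without replicate 2 (0.66, adjusted p = 0.0499). Stat5b (-0.32 ± 0.17, adjusted p = 0.186) was past it and lower with hybridization control scaling (-0.57, adjusted p = 0.0281). Jak3 did not pass (0.20 ± 0.18), and Stat6 was too dim for the test. Jak2, the kinase of the interferon gamma and growth hormone receptors, read 91.3, 103.0 and 117.2 in controls and 35.8, 13.2 and 36.6 in treated cultures, where it was at background. The fall was at least 1.04-fold.

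Of the SOCS proteins, which bind receptors or JAKs and end their signal, Socs1 went from background to a clear signal on 1 of its 2 probe sets. That probe set read 6.3, 30.2 and 22.5 in controls and 375.4, 280.7 and 228.6 with dexamethasone. The treated signal was at least 4.45-fold higher, and limma gave an adjusted p of 0.00267 in the fit with no filter. The other probe set was at background on all 6 arrays, between 20.9 and 52.5. Both carry the same symbol, and which transcripts each detects was not examined. Socs7, which has been tied to insulin signalling, rose from 611.7 ± 53.2 to 865.2 ± 131 (0.49 ± 0.15, adjusted p = 0.0322). This call was lost in 6 of the 12 settings, among them without replicate 2 (adjusted p = 0.105) or 3 (adjusted p = 0.208). The change at its other probe set was -0.14 ± 0.15 (adjusted p = 0.507). Socs3, the feedback inhibitor of gp130 signalling, read 332.5, 316.2 and 295.8 in controls and 223.5, 299.0 and 296.8 in treated cultures and did not pass (-0.22 ± 0.19, adjusted p = 0.399). Socs5 (0.12 ± 0.16) and Socs6 (-0.04 ± 0.15) did not pass either.

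The interferon regulatory factors bind interferon response elements. Irf3, which starts the antiviral response, read 309.1, 193.9 and 210.7 in controls and 462.8, 268.9 and 355.0 with dexamethasone. The groups overlapped, with higher values within each pair, and Irf3 passed (0.60 ± 0.17, adjusted p = 0.0230, limma). The call was lost without the block (adjusted p = 0.0785), with hybridization control scaling (adjusted p = 0.112) and without replicate 1 (adjusted p = 0.0942) or 3 (adjusted p = 0.113). Irf1 (-0.03 ± 0.17), induced by interferon gamma, and Irf7 (0.21 ± 0.23), its counterpart for type I interferons, did not pass. Irf9, the DNA-binding partner of Stat2, read between 98.2 and 134.5 in controls and between 115.6 and 163.6 in treated cultures and was too dim for the test.

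Icam1 and Vcam1, the adhesion molecules that leukocytes bind on activated endothelium, and Icam2 were at background on all arrays. Vcam1 read between 13.6 and 29.7 in controls and between 29.9 and 72.8 in treated cultures. It did not pass with no filter (adjusted p = 0.0727, limma), and differences between signals at background are not measured well.

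**Figure D4:**
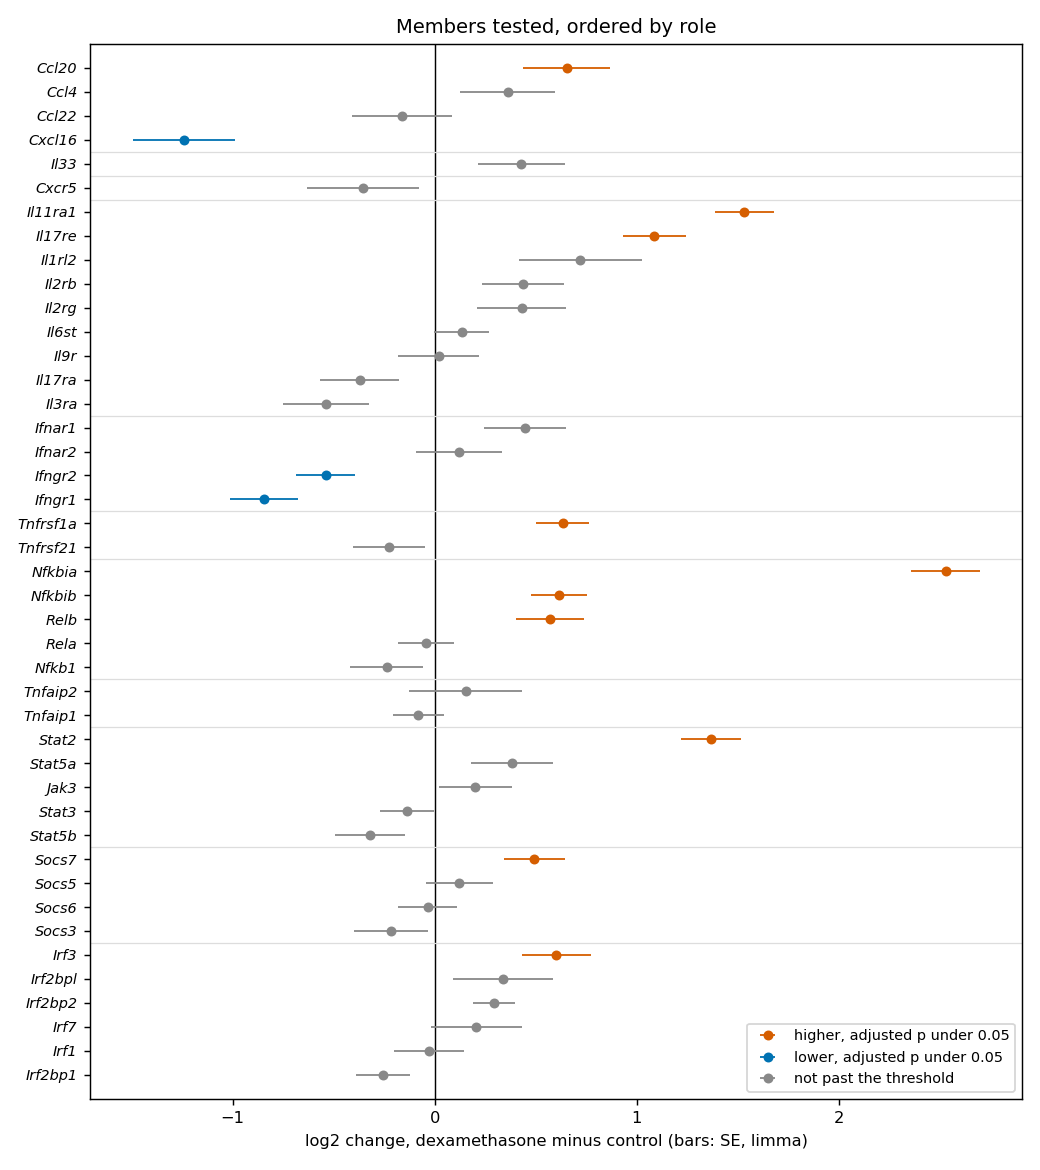
Log2 change, dexamethasone minus control, with its SE from limma (horizontal axis and bars), of the 43 members tested, ordered by role with grey lines between roles. The 10 members past the threshold and higher are orange, the 3 lower are blue, and the 30 others are grey.

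Further genes of these pathways, from lists that leave out the members, were read in the same fit. Of 23 NF-kB adaptors and kinases tested, 7 rose and 5 fell (52.2% called, against 38.4% of all genes tested, median 0.11), or 3 rose and 8 fell with hybridization control scaling and 9 rose and 2 fell with 75th percentile centring. Tnip1, a partner of the ubiquitin editor A20 that restrains NF-kB, rose from 317.2 ± 39.9 to 735.0 ± 20.5 (1.22 ± 0.15, adjusted p = 0.000356, limma). Myd88, the adaptor of Toll-like and interleukin-1 receptors, rose by 1.11 ± 0.22, and Sqstm1, a signalling scaffold and autophagy receptor, by 1.15 ± 0.10, though the mean of its probe sets did not pass (0.32, adjusted p = 0.107). Traf5, an adaptor of TNF receptors, fell from 418.4 ± 35.9 to 168.0 ± 46.2 (-1.35 ± 0.21, adjusted p = 0.00122).

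Of 21 other JAK-STAT receptors and regulators tested, 3 rose, 1 fell and 17 did not pass (19.0% called, against 38.4% of all genes, median -0.03), and 4 fell with hybridization control scaling. Pim3, a kinase of a STAT-induced family, rose from 1674 ± 173 to 7802 ± 443 (2.22 ± 0.10, adjusted p = 1.6e-06, limma). Ghr, the growth hormone receptor, rose by 1.55 ± 0.21 and Sh2b3, an adaptor that limits JAK2 signalling, by 0.76 ± 0.19, a call lost without replicate 1 (adjusted p = 0.0642). Ptpn2, a phosphatase of JAKs and STATs, fell by 0.51 ± 0.15, a call lost with quantile normalization, with 75th percentile centring and without replicate 1 (adjusted p = 0.156) or 2 (adjusted p = 0.0965). Cish, a STAT5 target, did not pass (-0.28).

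Of 17 interferon-stimulated genes tested, 3 rose, 3 fell and 11 did not pass (median -0.08), and their share of calls, 35.3%, was near the 38.4% of all genes. The falls were in Psme1 and Psme2, which encode the interferon gamma-induced cap of the proteasome, and in Lgals3bp. Psme1 fell from 1156 ± 83.5 to 269.5 ± 105 (-2.19 ± 0.23, adjusted p = 0.000142, limma), Psme2 from 743.0 ± 72.4 to 279.1 ± 102 (-1.48 ± 0.19) and Lgals3bp by 1.34 ± 0.16. Isg20, an RNA exonuclease, rose by 1.39 ± 0.19. Bst2, which tethers viruses to the cell (1.33 ± 0.14), and B2m, the light chain of MHC class I (1.20 ± 0.13), rose as well and were named after their values were seen. Ifit1 (-0.15), Usp18 (0.02) and Parp14 (-0.09) did not pass.

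Of 12 NF-kB target genes tested, 5 rose, 1 fell and 6 did not pass (median 0.49), where 38.4% of all genes were called. Gadd45b, a stress-induced inhibitor of cell death, rose from 178.4 ± 58.2 to 2732 ± 335 (3.98 ± 0.22, adjusted p = 3.1e-06, limma). C3, the central complement component, read 62.2, 29.6 and 54.7 in controls and 1680.9, 3123.4 and 294.9 with dexamethasone. The treated arrays differed widely, with dexamethasone 3 the lowest, and C3 rose by 4.64 ± 0.62, but by 3.59 without replicate 2, 5.74 without replicate 3 and 3.37 with a pseudocount of 75.5. Ninj1, which ruptures membranes of dying cells, rose by 1.42 ± 0.17, and Cd83, a dendritic cell activation marker, fell by 1.29 ± 0.13. Lcn2 and Myc, named after their values were seen, rose by 1.27 ± 0.30 and 0.65 ± 0.13, and the call of Lcn2 was lost without replicate 1 (adjusted p = 0.0725) or 2 (adjusted p = 0.0843). Sod2 did not pass (0.22), and Ptgs2, Sele and Bcl2a1 were at background on all arrays.

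From a list of glucocorticoid-induced genes, brakes on inflammation among them, 21 were on the array and 13 were tested. Of these 13, 11 rose and 2 did not pass. The others, such as Anxa1, Slpi and Klf4, were too dim for the test. Of the 13, 84.6% were called, against 38.4% of all genes, and the median was 2.37. Hybridization control scaling gave 10 higher and 1 lower. The 4 largest rises were in Sgk1, a kinase that glucocorticoids induce (5.96 ± 0.17), Cebpb, a transcription factor (3.84 ± 0.17), Dusp1 and Fkbp5, a co-chaperone of the glucocorticoid receptor (2.69 ± 0.13). Dusp1, a phosphatase that turns off MAP kinases, rose from 162.0 ± 21.2 to 1193 ± 540 (2.78 ± 0.26, adjusted p = 7.0e-05, limma), and Zfp36, which destabilises cytokine messenger RNAs and was named after its values were seen, from 148.6 ± 18.7 to 781.8 ± 199 (2.37 ± 0.21). The list was drawn from genes known to respond to glucocorticoids, with earlier results of these data known, and its direction is no independent evidence. It also holds general glucocorticoid response genes, such as Sgk1, Fkbp5 and Per1, so its rises are not all rises of inhibitors of inflammation. Tnip1 is counted in this list and among the adaptors.

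**Figure D5:**
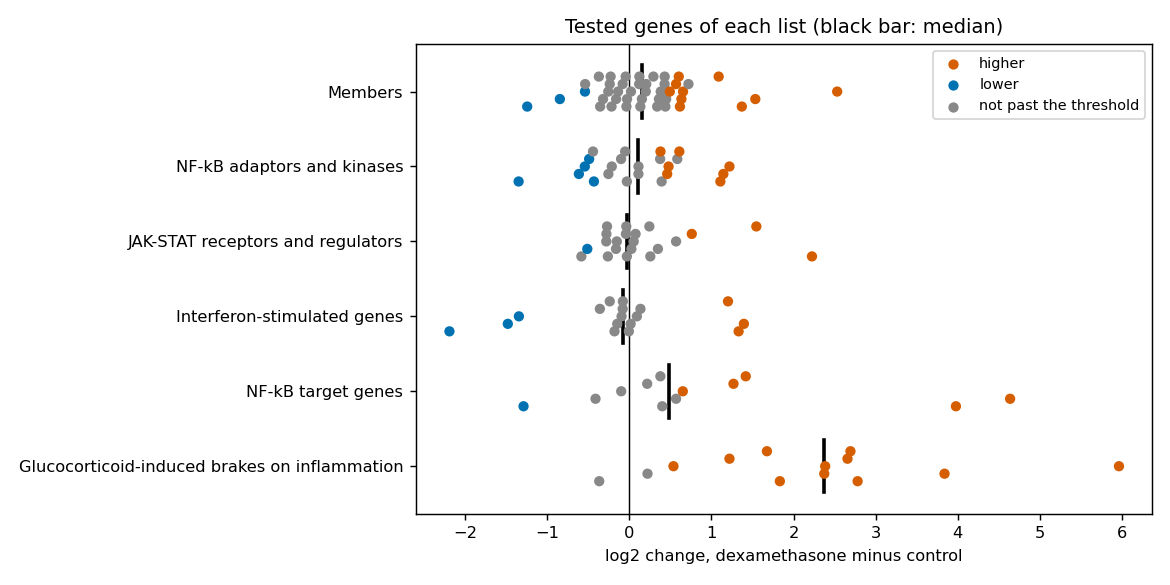
Log2 change, dexamethasone minus control (horizontal axis), of the tested genes among the members and in 5 pathway lists (1 point per gene, spread vertically for legibility; black bars are medians). The medians are 0.15 for the members and between -0.08 and 0.49 for the first 4 lists. The median is 2.37 for the glucocorticoid-induced genes, labelled as brakes on inflammation.

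The labelled cell type was checked on markers. Of 11 acinar genes, all were above background on all arrays, among them Cpa1 and Amy2a3, and 7 of the 10 tested rose. The summed signal of the 11 ran from 80989 to 95964 in controls and from 117120 to 131050 with dexamethasone. Within it, Prss1 went from 726.1 ± 98.9 to 15481 ± 361 and Cela2a from 4450 ± 732 to 15484 ± 694. Cpa1 read 19716 ± 2312 and 17050 ± 3388. Of 16 leukocyte markers on the array, 6 were at background on all arrays, among them Ptprc and Itgam, and of the 4 tested (Csf1r, Fcer1g, Aif1 and Cd4) none passed. The summed signal of the 16 ran from 1429 to 1656 in controls and from 1586 to 1856 with dexamethasone. Of 11 fibroblast markers, 3 were tested and none passed, with sums of 1426 to 1910 and 1616 to 1892. Both tested endothelial genes rose, Pecam1 by 1.05 ± 0.27 (adjusted p = 0.0143, limma) and Esam by 0.49 ± 0.16 (adjusted p = 0.0415), a call lost with no filter (adjusted p = 0.0748). The 7 endothelial markers summed to 522.9 to 601.1 in controls and 796.5 to 952.1 with dexamethasone, while Kdr, Eng and Nos3 were at background on all arrays. The part of these shifts and of such cells in the members' changes was not tested. In RNA from whole cultures, fewer cells of a type and less RNA per cell cannot be told apart.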

How the data were processed

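Affymetrix Rat 230A arrays of 3 control and 3 dexamethasone-treated AR42J cultures were analysed. The authors deposited MAS5 signals, linear intensity values. GCOS and MAS5 are the tools that the submitters' processing notes name, with versions and scaling not given in the sources used. The 2% trimmed mean was 497.6 to 498.4 on every array, which makes a signal relative to its array's total. MAS5 subtracts a local background, which makes low signals noisy.

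After 57 control probe sets were left out, 4 values of 0 were set to 0.1 and signals were taken to log2. Probe sets at or above the 40th percentile of mean log2 signal were tested in R 4.3.3, using limma 3.58.1 with an intensity trend, the replicate number as block and Benjamini-Hochberg adjustment. The fit was also run on data simulated with normal noise, in which a far smaller share of probe sets changed than was called here. That run did not vary the array scaling or the filter, so it cannot say how the calls depend on them. The block follows the series' design text, which calls the cultures pairs. Deviations of same-numbered arrays from their group means correlated at -0.10, 0.11 and 0.21, so the data do not show the pairing for replicate 1. The p-values cover the spread between these cultures.

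Genes were named from the GEO platform annotation, and all 128 members matched the RefSeq table of GRCr8 by gene identifier with the same symbol. By rule, members named were up to 12 rises and 12 falls by size, past the threshold with 1 direction in every pair, and a list of 57 canonical genes, 47 of them measured. Members too dim for the test were to have no direction. As exceptions, Il6r, Socs1, Il1r2, Jak2 and Tnfaip8 have one, since 1 group was at background and they passed with no filter. Il13, Il23a, Il7r and Tnfrsf14 have one only because they passed with no filter. Other members outside the rule, most of them tested without passing, were named after their values were seen. From each list the 4 largest changes past the threshold were named, and any further listed gene was picked after its values were seen. Bounds compare the brighter group's mean log2 signal with the dimmer group's, each dim array raised to its background level where it lay below. The members, lists and rules were chosen with earlier results of these data known.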

Additional observations from a re-analysis of the deposited data

How the results depend on the processing

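The count of 10 higher and 3 lower members moved by over 1.5 times in these settings: hybridization control scaling gave 4 higher and 7 lower, and dropping the filter on low signals gave 5 lower. Without 1 replicate, 7 to 8 members were higher and 2 to 3 lower, and each of these 3 fits shared 9 of the 13 calls. Without the replicate block, 8 were higher and 4 lower, and 11 of the 13 calls were shared: Relb and Irf3 were lost and Il3ra was gained, and the cause was not tested. Among the lists, the 7 higher and 5 lower NF-kB adaptors and kinases became 3 and 8 with hybridization control scaling, 5 and 3 with no filter, 6 and 3 with quantile normalization, 9 and 2 with 75th percentile centring, and 4 and 2, 3 and 2, and 5 and 1 without replicates 1, 2 and 3. The single lower JAK-STAT regulator, Ptpn2, became 4 lower with hybridization control scaling, 2 lower without replicate 3, and 0 lower with quantile normalization, 75th percentile centring and without replicate 1 or 2. Lower NF-kB targets numbered 2 when replicate 1 was left out or hybridization controls set the scale. Calls were also followed over the tested members chosen by the naming rule and all called genes of the 5 lists. Counting each gene in each setting as a value, 76 values lost their call, 2 gained one and 699 kept their side of the threshold. No call changed direction. A filter on the brighter group, added after the data were seen, lost Ccl20 (adjusted p = 0.0522, limma). It let in Il6r, Socs1 and Il1r2 through their treated signals alone, so its result for them is not used. Without a replicate 1 residual degree of freedom is left, and without replicate 3 limma took the spread entirely from its trend over genes, so p-values of that fit rest on that assumption. The number of arrays (3 per group) and the nearness of 85 members to background limit what could be detected.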
